A study of Mus musculus with 12 samples.

Results

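The 36 genes described here are read as markers of macrophages and other leukocytes, and were taken by name from a table of 55417 genes deposited with RNA-seq data from the mouse pancreas. They comprise 13 macrophage genes, 4 neutrophil genes, 11 genes that macrophages and neutrophils share, 7 genes of leukocytes in general and the T cell gene Cd3e. The cells came from E17.5 embryos of the genotype Gcg-Timer, a reporter named for the glucagon gene, so all groups carry the reporter. After dissociation, flow cytometry divided the pancreas cells into 3 groups, with 4 libraries each from different mothers. Group N (N1 to N4) held the non-α cells, group A (A1 to A4) the α cells in which green fluorescence dominated, described as newly generated, and group B (B1 to B4) the α cells that were both green and red, described as more differentiated. The promoter construct, the gates and the number of embryos pooled per library are not given in the sources used here, and no leukocyte population was sorted.

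Macrophages settle in the fetal pancreas from yolk sac and fetal liver precursors, depend on signalling through the receptor encoded by Csf1r, clear dying cells and produce the complement protein C1q. Neutrophils make their granule proteins in sequence, beginning with azurophil proteins such as myeloperoxidase and neutrophil elastase in precursors and ending with gelatinase granule proteins in mature cells. The α cells of the islet make glucagon.

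Library totals ranged from 16216935 to 38545699 estimated counts. All 36 genes passed the filter on low counts, among 17230 genes tested. Mpo and Elane, with 0 counts in A and 1 and 0 in B, passed it through N alone. Their tests against N could therefore give only a fall. The levels below are CPM, counts scaled to library size with TMM factors, unless TPM, which also divide by transcript length, are named. Where a range follows the word alternatives, it spans the adjusted p over the other processing settings tried. The sorting labels were checked with Gcg, which encodes glucagon, at 102 ± 30.9 CPM in N, 15400 ± 4430 in A and 37300 ± 7190 in B (mean ± SD, n = 4 each). In a bulk library, fewer cells of a type and less RNA per cell cannot be told apart. With 4 libraries a group from different mothers, each p-value reflects the spread between these libraries.

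Promoter windows of these genes were compared because most of the genes moved in the same direction between the groups. RefSeq (GRCm38.p6) gave 32 windows for 27 of the 36 genes, each of 300 bases, from 250 before to 50 after a transcript start. The string GAGGAAGT is a known binding sequence of PU.1, the myeloid transcription factor that Spi1 encodes. GAGGAAGT, or its reverse complement, stood in 7 of the 32 windows (21.9%) and in 1052 of 32851 windows of all genes (3.2%). Another 5 strings were counted on both strands, the first 3 of which overlap it. The string AGAGGAAG stood in 15.6% of the 32 windows (5 windows of 4 genes) and 4.55% of all windows. The string GAGGAAG stood in 40.6% and 13.6%, and the shorter string GAGGAA in 62.5% and 28.3%. The string TTGCNNAA stood in 18.8% and 10.8%. The string TGTGGT stood in 21.9% and 16.8%. The string printed was picked after all 6 had been counted, and a match is a description of the letters only. The 7 windows belonged to C1qc, Pf4, Ctss, Cd53, S100a8, Mpo and Elane. Of these, 5 are printed 5′ to 3′ on the gene's strand, with the string in capitals, because the results below turn on these genes or, for Ctss, because the string lies at the transcript start.
The windows lie at chr4:136892865-136893164 (minus strand), chr3:95526536-95526835, chr11:87793534-87793833, chr10:79886062-79886361 and chr3:90668821-90669120 (plus strand).
C1qc: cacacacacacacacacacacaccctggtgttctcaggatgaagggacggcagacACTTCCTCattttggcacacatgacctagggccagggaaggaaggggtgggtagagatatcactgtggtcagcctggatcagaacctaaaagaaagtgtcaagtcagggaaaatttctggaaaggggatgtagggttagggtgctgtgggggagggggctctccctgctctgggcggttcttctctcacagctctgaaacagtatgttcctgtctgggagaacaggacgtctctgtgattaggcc
Ctss: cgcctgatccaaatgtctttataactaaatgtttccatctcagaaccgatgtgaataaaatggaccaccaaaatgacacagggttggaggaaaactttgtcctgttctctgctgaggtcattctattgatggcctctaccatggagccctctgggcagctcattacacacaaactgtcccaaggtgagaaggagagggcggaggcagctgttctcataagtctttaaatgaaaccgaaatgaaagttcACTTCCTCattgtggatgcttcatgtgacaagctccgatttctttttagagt
Mpo: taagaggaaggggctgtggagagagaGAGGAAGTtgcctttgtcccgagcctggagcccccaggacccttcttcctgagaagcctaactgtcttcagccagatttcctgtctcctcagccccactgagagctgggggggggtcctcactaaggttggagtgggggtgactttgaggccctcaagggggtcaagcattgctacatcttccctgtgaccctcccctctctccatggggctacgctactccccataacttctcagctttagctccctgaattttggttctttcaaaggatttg
Elane: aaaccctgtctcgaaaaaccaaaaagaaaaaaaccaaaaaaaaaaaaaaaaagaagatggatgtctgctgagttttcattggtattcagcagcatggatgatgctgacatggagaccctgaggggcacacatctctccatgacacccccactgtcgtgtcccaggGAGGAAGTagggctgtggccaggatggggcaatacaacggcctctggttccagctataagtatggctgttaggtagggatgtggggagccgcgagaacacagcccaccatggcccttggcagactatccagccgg
S100a8: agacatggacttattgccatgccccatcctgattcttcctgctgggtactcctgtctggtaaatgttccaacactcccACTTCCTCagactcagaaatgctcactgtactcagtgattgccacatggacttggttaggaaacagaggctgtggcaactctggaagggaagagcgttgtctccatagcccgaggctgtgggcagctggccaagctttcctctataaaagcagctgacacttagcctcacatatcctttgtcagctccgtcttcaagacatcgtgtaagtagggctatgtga
The string began 195 bases before the transcript start in C1qc, 172 before it in S100a8, 224 before it in Mpo, 85 before it in Elane and 2 before it in Ctss.

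The transcripts of leukocytes were highest in the non-α cells and lowest in the green and red α cells. Their summed level was 1630 ± 196 CPM in N, 439 ± 249 in A and 135 ± 30.4 in B (mean ± SD, n = 4 each), so that A held 26.9% and B 8.28% of the level in N. In summed TPM these shares were 50.5% and 16.4%. As a share of all counts, the 36 genes took 0.126% in N, 0.0501% in A and 0.0152% in B. Every N library lay above every A library, and every A library above every B library, in this sum.

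Gene by gene, edgeR's quasi-likelihood test called 23 of the 36 genes lower in A than in N at an adjusted p under 0.05 and none higher. Among all genes tested, 21.3% were lower and 23.8% higher in this comparison. From A to B, 25 of the 36 genes fell and none rose, against 9.12% lower and 4.63% higher among all genes. In B against N all 36 fell, where 30.5% of all genes were lower and 29.7% higher. The median log2 change of the 36 genes was -1.72 for A against N, -2.40 for B against A and -4.24 for B against N, and the median of all genes tested was -0.024, -0.008 and -0.026. With library totals in place of TMM factors, the split over all genes was 1386 lower and 8243 higher in A against N, in place of 3664 and 4099, and 17 of the 36 genes were lower and none higher. In B against N the split was 3407 and 8263 in place of 5257 and 5118, and 35 of the 36 were lower. These comparisons share libraries, so their values are set side by side and not tested against each other. The same shares of all genes apply to the counts of each class and list below that come from the main fit.

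Without overlap between the groups, 25 of the 36 genes were lower in A than in N (21.3% of all genes, with 22.0% higher without overlap), 13 were lower in B than in A (9.28%, with 9.67% higher) and 35 were lower in B than in N (29.5%, with 28.8% higher). Pf4 was the exception in B against N, with B4 at 6.28 CPM above N3 at 4.59 CPM. Overlap and separation, here and below, were judged in CPM unless TPM are named. On the TPM scale, A1 lay within the N range for Tyrobp, Spi1, Itgam, Laptm5, Coro1a and Lcp1, among other genes. A fit of the A and B libraries alone called 16 of the 32 genes it tested lower in B than in A. The share of all genes called in that fit is not given, so the count cannot be set against it.

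**Figure D1:**
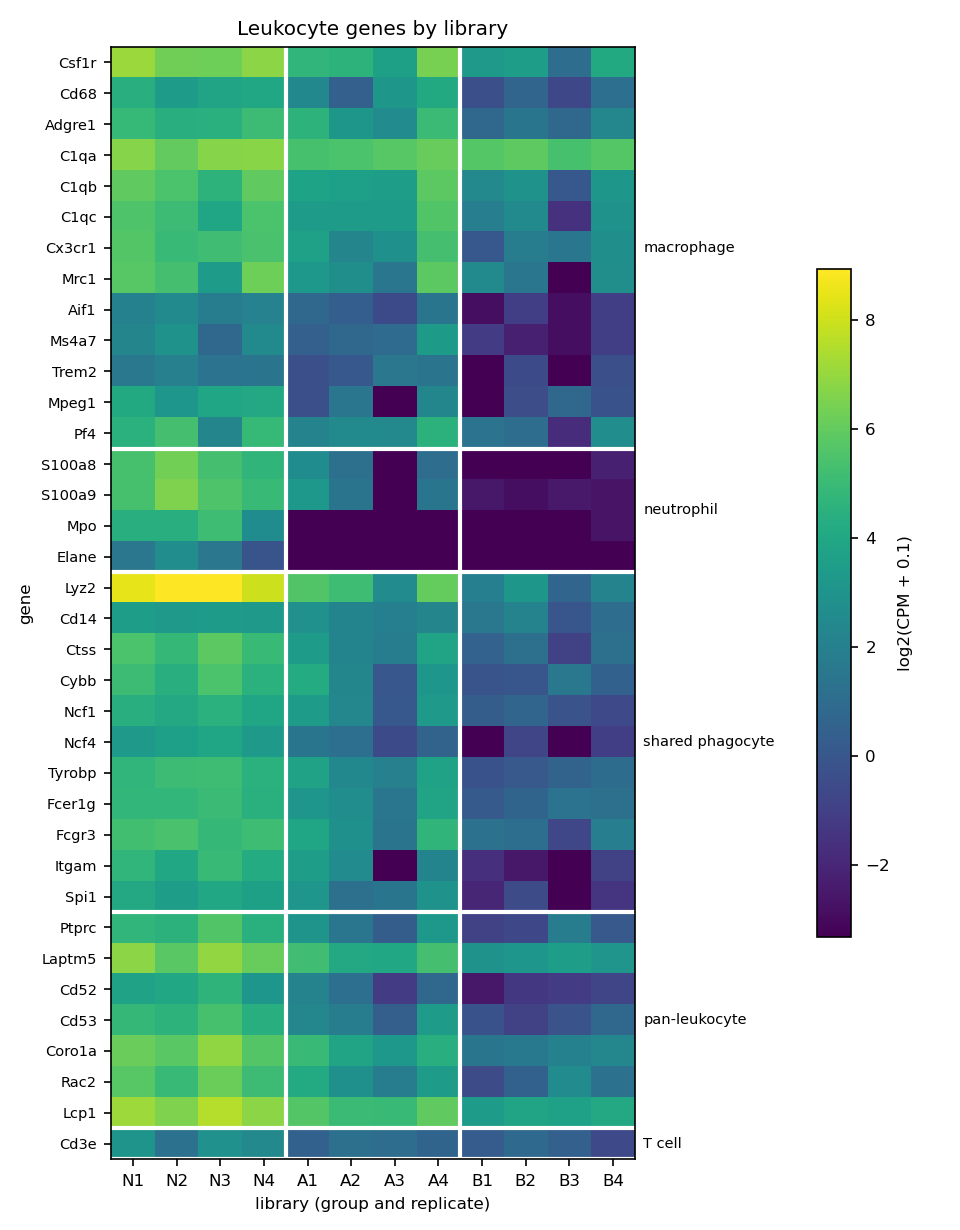
Levels of the 36 genes (rows, grouped by class) in the 12 libraries (columns), as log2 of CPM plus 0.1. Lyz2 is the brightest row in N, C1qa is at 40.5 CPM or more in all 12 libraries, and Mpo and Elane are dark in all A libraries.

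**Figure D2:**
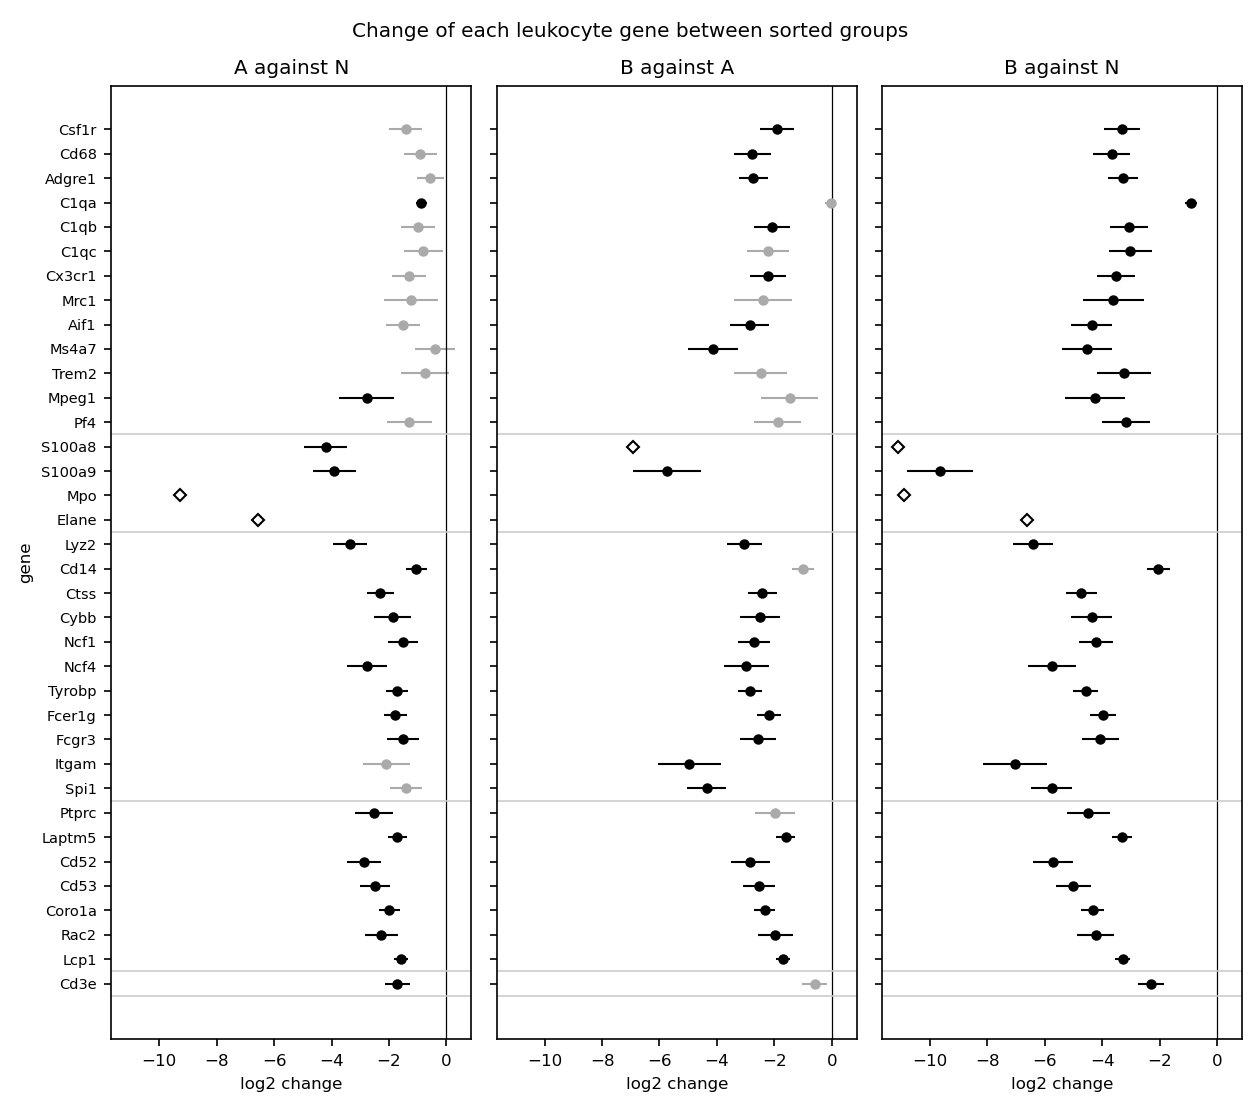
Log2 change of each gene (rows) in the 3 comparisons, with bars of 1 standard error. Black points passed the adjusted p of 0.05 and grey points did not; open diamonds are bounds or ratios for genes with at most 3 counts in the lower group, and Mpo and Elane are left out of B against A, where both groups were at or under 3 counts. No point that passed lies to the right of 0.

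Among the classes, the macrophage genes had the smallest median change between N and A. Of the 13, 2 were called lower in A than in N (C1qa and Mpeg1), where 21.3% of all genes were lower, so these calls do not set the class apart. The median log2 change was -0.99. With library totals in place of TMM factors none was called, and the median was -0.45. From A to B, 7 of the 13 fell, where 9.12% of all genes were lower, with a median of -2.23. All 13 were lower in B than in N, at a median of -3.32. With the replicate number as a block, 7 of the 13 were lower in A than in N and 10 in B than in A. The share of all genes called in that fit is not given. The difference between classes was not tested.

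The direction of the macrophage genes between N and A depended on the scale. With library totals in place of TMM factors, none of the 13 was called and the log2 change of Adgre1 (0.00) and Ms4a7 (0.13) was no longer negative, in a fit where the median of all genes shifted by 0.57. On the TPM scale, 7 of the 13 (Cd68, Adgre1, C1qa, C1qb, C1qc, Ms4a7 and Trem2) had a higher mean in A than in N, and the sum of the 13 was 296 ± 121 TPM in N, 303 ± 212 in A and 147 ± 45.6 in B. In B against A, all 13 changes were negative with TMM, RLE and no factors, and all 13 means were lower in B on the TPM scale. C1qa alone made up 92.6, 105 and 102 TPM of the sums in N, A and B.

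Csf1r, the receptor for the macrophage growth factors CSF1 and interleukin 34, gave 135, 77.1, 73.2 and 111 CPM in N1 to N4, 26.9, 24.0, 12.3 and 84.8 CPM in A1 to A4 and 9.42, 11.4, 1.96 and 17.1 CPM in B1 to B4. A4 lay within the range of N, and the other A libraries lay below every N library. The log2 change was -1.42 ± 0.57 (SE) for A against N (adjusted p = 0.0597, alternatives 0.00303 to 0.202) and -1.91 ± 0.60 for B against A (adjusted p = 0.0496, alternatives 0.0103 to 0.175). The block took the first to -1.79 (adjusted p = 0.00303), and leaving out A4 took the second to -1.09 (adjusted p = 0.175). The second call was lost when any 1 of 10 libraries was left out.

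Cd68, a lysosomal membrane glycoprotein of macrophages, was measured at 20.1, 10.7, 14.1 and 16.1 CPM in N1 to N4, 5.10, 1.27, 8.78 and 17.1 CPM in A1 to A4 and 0.704, 1.5, 0.538 and 2.11 CPM in B1 to B4. A2 was the lowest A library for this gene, and A4 exceeded 3 of the 4 N libraries. It did not pass in A against N (log2 change -0.91 ± 0.58, adjusted p = 0.213), and fell by 2.76 ± 0.64 on the log2 scale from A to B (adjusted p = 0.0124). Without the libraries numbered 3, this change was -2.47 and the adjusted p 0.0581 (alternatives 5.56e-05 to 0.0581).

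Adgre1, which encodes the surface protein F4/80, stood at 28.9, 20.5, 21.5 and 33.2 CPM in N1 to N4, 24.0, 8.95, 5.90 and 31.9 CPM in A1 to A4 and 1.63, 2.59, 1.65 and 4.93 CPM in B1 to B4. A1 and A4 lay in the range of N, and all B libraries lay below all A libraries. The change was -0.56 ± 0.47 from N to A (adjusted p = 0.35) and -2.73 ± 0.51 from A to B (adjusted p = 0.00403).

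Cx3cr1, the receptor for the chemokine CX3CL1, had 49.1, 30.7, 36.3 and 42.4 CPM in N1 to N4, 12.7, 4.67, 6.96 and 39.3 CPM in A1 to A4 and 0.927, 3.56, 2.69 and 6.82 CPM in B1 to B4. Only A4 reached the N range. The log2 change was -1.31 ± 0.59 in A against N (adjusted p = 0.0875, or 0.0122 with the replicate block, alternatives 0.00396 to 0.283) and -2.21 ± 0.63 in B against A (adjusted p = 0.0341, or 0.121 without A4, alternatives 0.00965 to 0.121). The annotated span of Cx3cr1 overlaps that of Wdr48, Gorasp1 and Csrnp1, and it is not given whether reads were counted by strand.

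Mrc1, the mannose receptor of tissue macrophages, ranged widely within N and A, with 53.6, 39.9, 10.7 and 74.7 CPM in N1 to N4, 9.13, 6.64, 2.66 and 57.5 CPM in A1 to A4 and 5.52, 2.70, 0 and 6.60 CPM in B1 to B4. N3, at 10.7 CPM, was far below the other N libraries and B3 had no count. Neither step passed (log2 change -1.23 ± 0.94, adjusted p = 0.305, and -2.38 ± 1.01, adjusted p = 0.139). With the block, both did (adjusted p = 0.0132, alternatives 0.0132 to 0.537, and 0.0256, alternatives 0.0256 to 0.638).

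Pf4, a chemokine of platelets and of fetal macrophages, read 22.4, 39.4, 4.59 and 29.5 CPM in N1 to N4, 4.35, 5.70, 5.41 and 23.5 CPM in A1 to A4 and 2.41, 1.95, 0.192 and 6.28 CPM in B1 to B4. It showed the same low value in N3 and the same high value in A4 as Mrc1. Its log2 change was -1.29 ± 0.78 from N to A (adjusted p = 0.193) and -1.88 ± 0.82 from A to B (adjusted p = 0.149, or 0.0284 with the block, alternatives 0.0284 to 0.467).

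Ms4a7, a membrane protein of tissue macrophages, showed the smallest change of the 36 genes between N and A, with 4.59, 7.84, 1.60 and 5.74 CPM in N1 to N4, 1.26, 1.60, 1.86 and 10.2 CPM in A1 to A4 and 0.334, 0.113, 0.0384 and 0.379 CPM in B1 to B4. A4 was the highest of all 12 libraries, and no B library exceeded 0.379 CPM. The change was -0.40 ± 0.70 in A against N (adjusted p = 0.665) and -4.13 ± 0.86 in B against A (adjusted p = 0.00703).

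Of the remaining macrophage genes, Aif1, which encodes the actin-binding protein IBA1, spanned 3.44 to 5.46 CPM in N, then 0.577 to 2.58 in A and 0.0371 to 0.379 in B. It missed the threshold from N to A (adjusted p = 0.0532, or 0.0264 with the block, alternatives 0.0155 to 0.186) and fell by 2.86 ± 0.68 from A to B (adjusted p = 0.0147, or 0.0509 in the fit of A and B alone, alternatives 0.000247 to 0.0509). Trem2, a lipid-sensing receptor that signals through TYROBP, spanned 2.45 to 3.92 CPM in N, then 0.702 to 2.75 in A and 0 to 0.704 in B, and passed in neither step (adjusted p = 0.48 and 0.0946). Mpeg1, which encodes the pore-forming protein perforin-2, spanned 8.47 to 17.1 CPM in N, then 0 to 4.75 in A and 0 to 1.58 in B. It fell by 2.78 ± 0.95 from N to A (adjusted p = 0.0296, above 0.05 without any 1 of N1, N3, N4, A1 or A2, alternatives 0.0122 to 0.0758). Its change from A to B was -1.47 ± 0.98 (adjusted p = 0.362).

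A4 held the highest value in A for 12 of the 13 macrophage genes. Without A4, 9 of the 13 were called lower in A than in N instead of 2. From A to B, 4 instead of 7 were then called lower. The share of all genes called without A4 is not given, so these counts cannot be set against it. The summed macrophage level was 447 CPM in A4 and 152, 124 and 122 CPM in A1, A2 and A3. A4 was also the highest A library in the sums of the shared phagocyte genes (169 CPM, the others 27.4 to 154), the general leukocyte genes (154 CPM, the others 62.7 to 151, though A1 was highest in TPM), the monocyte genes (244 CPM, the others 25.1 to 95.0) and the acinar genes (24700 CPM, the others 14200 to 21800). It was not the highest for the neutrophil genes, whose sum was 4.58 CPM there and 15.1 CPM in A1, nor for the endothelial genes, at 45.2 CPM in A4 and 108 to 224 CPM in the other A libraries. The Gcg-led α list summed to 30600 CPM in A4 and 19200 to 22500 CPM in the others.

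C1q is built from A, B and C chains, encoded side by side on chromosome 4 in GRCm39, with C1qa at chr4:136623228-136626114, C1qc at chr4:136617115-136620376 and C1qb at chr4:136607440-136613498, all on the minus strand. C1qb and C1qc behaved like the other macrophage genes and C1qa did not, a contrast that was picked after the values were seen and is given without a test. C1qb gave 60.0, 44.4, 23.8 and 60.3 CPM in N1 to N4, 13.6, 12, 11.2 and 57.5 CPM in A1 to A4 and 5.26, 7.43, 0.923 and 8.93 CPM in B1 to B4. It passed in B against A by a small margin (log2 change -2.08 ± 0.64, adjusted p = 0.046) and not in A against N (-0.99 ± 0.60, adjusted p = 0.194, or 0.0238 with the block, alternatives 0.0124 to 0.53). Its call in B against A was lost when any 1 of 10 libraries was left out, up to an adjusted p of 0.172 without A4 (alternatives 0.00921 to 0.172).

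C1qc gave 46.1, 33.5, 14.9 and 44.2 CPM in N1 to N4, 10.5, 10.5, 10.3 and 48.2 CPM in A1 to A4 and 3.71, 5.74, 0.231 and 7.52 CPM in B1 to B4. B lay below A in every library, and A4 above all N libraries. The log2 changes were -0.80 ± 0.68 (adjusted p = 0.359) and -2.23 ± 0.73 (adjusted p = 0.0603, or 0.0152 with the block, alternatives 0.0152 to 0.22).

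C1qa gave 104, 62.6, 103 and 108 CPM in N1 to N4, 41.1, 44.2, 53.7 and 67.8 CPM in A1 to A4 and 51.7, 58.4, 40.5 and 51.1 CPM in B1 to B4. The A and B libraries overlapped, between 40.5 and 67.8 CPM, with a log2 change of -0.04 ± 0.19 (adjusted p = 0.929), which became positive without A4 (0.12) or without B3 (0.05). Against N, whose N2 at 62.6 CPM lay below A4, C1qa was lower in A (-0.87 ± 0.20, adjusted p = 0.00297) and in B (-0.91 ± 0.20, adjusted p = 0.00129). Neither call held with library totals alone (-0.30, adjusted p = 0.187, alternatives 3.41e-05 to 0.187, and -0.36, adjusted p = 0.101, alternatives 8.71e-06 to 0.101), and on the TPM scale the mean was 92.6 ± 35.5 in N, 105 ± 27.5 in A and 102 ± 15.5 in B.

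Per length, C1qa exceeded C1qb by 1.51 to 4.62 times in the N libraries, by 1.28 to 5.18 times in A and by 6.18 to 47.3 times in B, as a ratio of TPM. The ratio of C1qb to C1qc stayed between 1.21 and 1.78 in 11 libraries and was 4.45 in B3, where C1qc fell to 0.231 CPM. In B, C1qa at 102 TPM was the most abundant of the 36 genes, ahead of Pf4 at 15.3 TPM and C1qb at 10.7 TPM. No other gene of the table overlaps the annotated spans of the 3 chains. In B3, where C1qb, C1qc and Mrc1 were at their lowest of the 12 libraries, C1qa was also at its lowest, at 40.5 CPM.

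**Figure D3:**
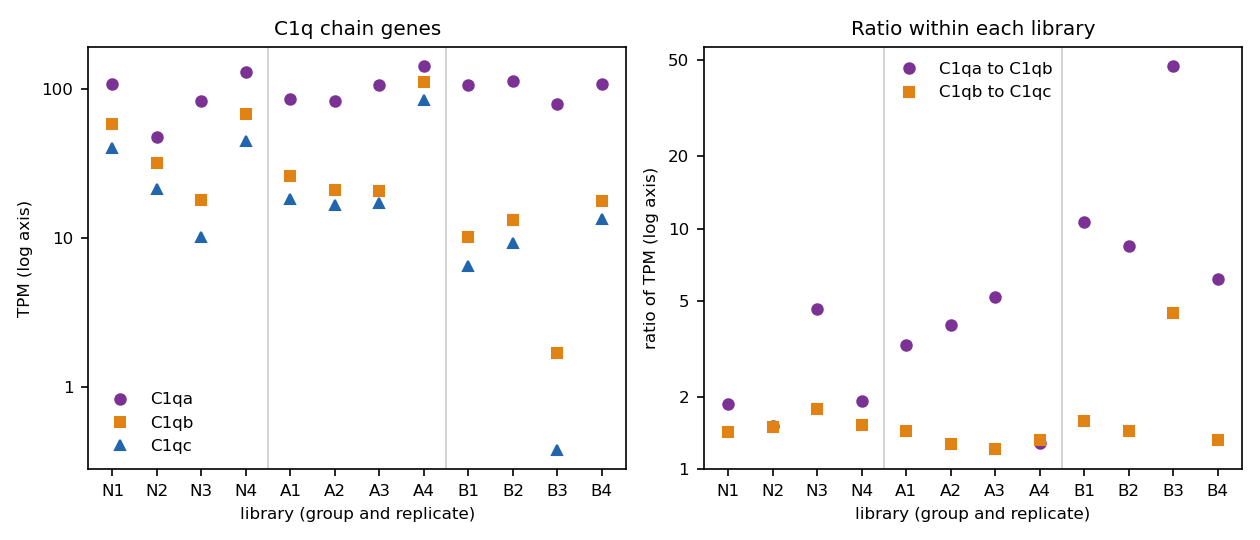
Left, TPM of the 3 C1q chain genes in each library on a log axis. Right, the ratio of TPM of C1qa to C1qb and of C1qb to C1qc in the same library on a log axis. C1qa runs level across the groups while C1qb and C1qc drop in B, and the ratio of C1qa to C1qb reaches 47.3 in B3.

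The neutrophil genes showed the largest changes of the 36. All 4 fell from N to A, and their sum was 123 ± 56.9 CPM in N, 6.10 ± 6.4 in A and 0.101 ± 0.0789 in B, so that A held 4.94% and B 0.082% of the level in N, or 14.3% and 0.207% in summed TPM. The 2 calcium-binding protein genes, S100a8 and S100a9, whose products form calprotectin, remained detectable in A, and the 2 azurophil granule genes did not. A bound over a group with no count was set against 3 counts over its 4 libraries. Bounds and the 95% intervals of ratios pool the counts of a group and cover counting error only, not the spread between libraries.

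Mpo, which encodes myeloperoxidase (chr11:87684407-87695239, GRCm39), gave 20.9, 20.1, 34.5 and 6.13 CPM in N1 to N4, 0, 0, 0 and 0 CPM in A1 to A4 and 0, 0, 0 and 0.0541 CPM in B1 to B4. These values correspond to 2177 counts in N, 0 in A and 1 in B. Mpo passed the filter on low counts through N alone, so its tests against N could give only a fall. Mpo was at least 620-fold lower in A than in N (adjusted p = 5.62e-06), and the ratio of N to B was 1940 (95% interval 347 to 76500).

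Elane, which encodes neutrophil elastase (chr10:79722081-79724049), gave 2.75, 6.22, 2.83 and 0.802 CPM in N1 to N4, 0, 0, 0 and 0 CPM in A1 to A4 and 0, 0, 0 and 0 CPM in B1 to B4. With 332 counts in N and none in A or B, it was at least 94.5-fold lower in A (adjusted p = 0.000793) and at least 98.5-fold lower in B (adjusted p = 0.000399). For Mpo and Elane no fold is given between A and B.

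S100a8 (chr3:90576285-90577342) gave 40.7, 80.6, 40.0 and 25.9 CPM in N1 to N4, 6.09, 2.17, 0 and 1.96 CPM in A1 to A4 and 0, 0, 0 and 0.108 CPM in B1 to B4. A1, A2 and A4 held 130, 46 and 57 counts, and A3 held none. The log2 change from N to A was -4.20 ± 0.75 (adjusted p = 0.000602). Over the groups there were 5014, 233 and 2 counts, and the ratio of A to B was 121 (95% interval 33.2 to 1010; adjusted p = 0.00665), although A3 at 0 overlaps the B libraries.

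S100a9 (chr3:90599939-90603028) gave 40.7, 93.3, 46.8 and 31.6 CPM in N1 to N4, 9.03, 2.54, 0 and 2.62 CPM in A1 to A4 and 0.0741, 0.0375, 0.0769 and 0.0541 CPM in B1 to B4. N2 and A1 were again the highest of their groups, and N4 and A3 the lowest. The log2 change was -3.91 ± 0.75 from N to A (adjusted p = 0.00102) and -5.74 ± 1.19 from A to B (adjusted p = 0.00699). In TPM, the ratio of S100a8 to S100a9 was 0.987 to 1.18 in the N libraries and 0.780 to 0.995 in the 3 A libraries with counts.

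Further neutrophil genes, from a list of 15 of which 11 were tested, showed 7 that fell from N to A, 4 that did not pass and none that rose, at a median log2 change of -2.97. Camp and Ngp, which encode the secondary granule proteins cathelicidin and neutrophilic granule protein, had 904 and 4076 counts in N and 1 and 13 counts in A. Prtn3, which encodes the azurophil protease proteinase 3, stood at 2.13 ± 1.20 CPM in N, 0.354 ± 0.165 in A and 0.296 ± 0.204 in B, and fell by 2.57 ± 0.71 on the log2 scale from N to A (adjusted p = 0.01).

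Mmp9 and Retnlg were among the 4 genes that did not pass between N and A. The direction of some genes turned with the scale. Mean TPM was higher in A than in N for Mmp9 (7.48 and 4.88), Retnlg (24.9 and 17.0) and Cebpe (0.885 and 0.442). It was lower in A for every other gene of the list. Cebpe changed least, with a log2 change of -0.15. It stood at 0.587 ± 0.117 CPM in N and 0.531 ± 0.429 in A, and had 64 counts in N, 48 in A and 0 in B. Mmp9, which encodes the gelatinase of the last granules, measured 22.3, 22.4, 20.9 and 15.8 CPM in N1 to N4, 31.9, 11.6, 0 and 12.1 CPM in A1 to A4 and 0.63, 0.30, 0 and 0.108 CPM in B1 to B4. A1 lay above N and A3 was at 0 (log2 change of A against N -0.55 ± 0.87, adjusted p = 0.63), and Mmp9 fell by 5.66 ± 1.17 from A to B (adjusted p = 0.00699). Retnlg, a gene of mature neutrophils, measured 8.68, 10.1, 7.95 and 5.20 CPM in N, 9.69, 4.29, 3.64 and 3.03 CPM in A and 0, 0, 0 and 0.0541 CPM in B. A1 lay within the range of N and the other A libraries just below it (-0.63 ± 0.42, adjusted p = 0.233), and with 468 counts in A and 1 in B the ratio of A to B was 488 (95% interval 87.1 to 19300; adjusted p = 0.000106). In this longer list 6 of the 11 genes fell from A to B and all 11 were lower in B than in N.

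**Figure D4:**
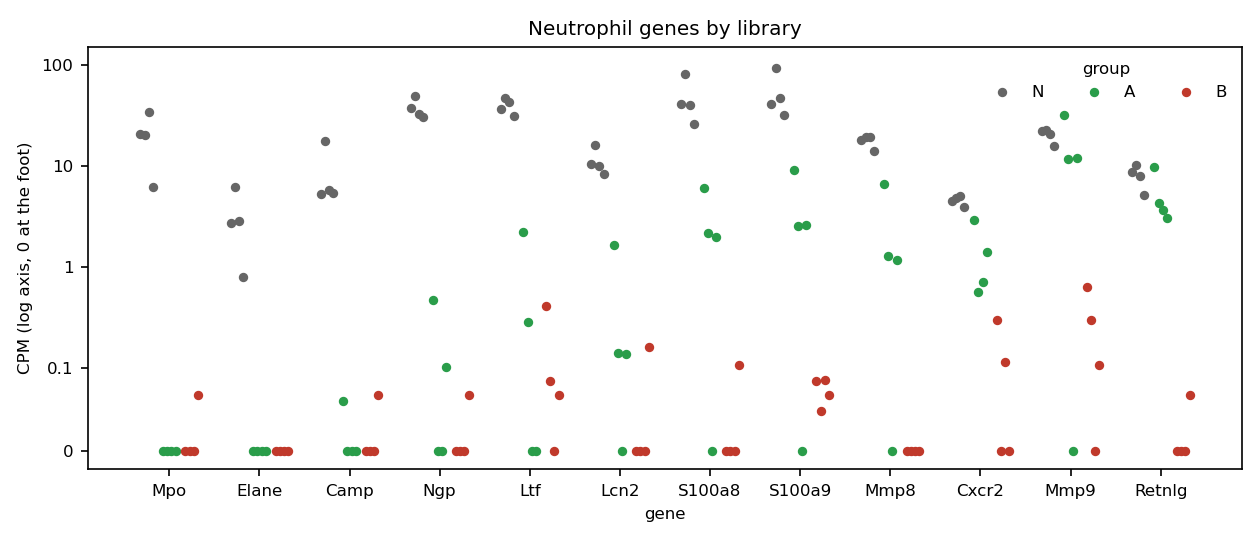
CPM of 12 neutrophil genes in each library on a log axis, with libraries at 0 drawn at the foot; grey, green and red points are N, A and B. The genes were picked after their values were seen. They run from those with no or almost no counts in A (Mpo, Elane, Camp, Ngp) to Mmp9 and Retnlg, with A libraries at up to 31.9 and 9.69 CPM. This order was not tested. The genes of the longer list that are not drawn had these counts in N and A: Prtn3 226 and 34, Ctsg 113 and 0, Cebpe 64 and 48, Ms4a3 50 and 2, Ly6g 72 and 0, Stfa1 1162 and 66, Wfdc21 137 and 8.

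Most of the genes that macrophages and neutrophils share fell at both steps. Of the 11, 9 were lower in A than in N (median log2 change -1.78) and 10 were lower in B than in A (median -2.71), and all 11 were lower in B than in N (median -4.57). Their sum was 634 ± 139 CPM in N, 108 ± 65.7 in A and 17.0 ± 5.58 in B. Under library totals without factors, 5 of the 11 were called lower in A than in N, at a median of -1.21. That fit called 1386 of all genes lower and 8243 higher. On the TPM scale, 10 of the 11 had a lower mean in A than in N, and Cd14 had 6.10 in A and 5.98 in N.

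Lyz2, which encodes lysozyme, was the most abundant of the 36 genes in N, at 247 ± 25.4 TPM. It gave 353, 484, 482 and 255 CPM in N1 to N4, 48.5, 34.8, 5.90 and 64.9 CPM in A1 to A4 and 3.78, 8.97, 1.5 and 4.38 CPM in B1 to B4. A3 stood between the other A libraries and most of B. The fall was 3.35 ± 0.60 from N to A (adjusted p = 0.000584) and 3.05 ± 0.61 from A to B (adjusted p = 0.00592), both on the log2 scale.

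Tyrobp, the adaptor that carries the signal of many myeloid receptors, gave 26.9, 33.3, 34.5 and 22.4 CPM in N1 to N4, 13.2, 5.23, 3.95 and 13.2 CPM in A1 to A4 and 0.741, 0.975, 1.38 and 1.89 CPM in B1 to B4. In CPM the groups were fully separated in this order. In TPM, A1 at 66.8 and A4 at 69.8 lay within the N range of 66.1 to 71.5. The log2 change was -1.72 ± 0.38 (adjusted p = 0.0025) and then -2.85 ± 0.42 (adjusted p = 0.00112). Other genes of receptor signalling moved the same way, with Fcer1g, the common Fc receptor γ chain, changing by -1.78 ± 0.40 and -2.18 ± 0.43 (adjusted p = 0.00298 and 0.00515). Fcgr3, a low-affinity Fc receptor, spanned 28.6 to 41.9 CPM in N, then 2.48 to 25.5 in A and 0.50 to 3.73 in B (adjusted p = 0.0435 and 0.0153). The first of the Fcgr3 calls was lost when any 1 of 9 libraries was left out, up to an adjusted p of 0.105 without A2 (alternatives 0.00342 to 0.159).

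Spi1, which encodes PU.1, gave 16.5, 11.2, 16.1 and 12.4 CPM in N1 to N4, 8.57, 2.21, 2.62 and 7.82 CPM in A1 to A4 and 0.148, 0.6, 0 and 0.271 CPM in B1 to B4. In CPM, A lay below N and B below A in every library. In TPM, A1 at 10.1 and A4 at 7.73 lay within the N range of 4.11 to 10.4. It narrowly missed the threshold from N to A (log2 change -1.41 ± 0.56, adjusted p = 0.0541, or 0.0454 with the block, alternatives 0.015 to 0.216) and fell by 4.36 ± 0.69 from A to B (adjusted p = 0.00164). Itgam, the αM integrin chain, also missed from N to A and fell from A to B. It spanned 15.8 to 31.0 CPM in N, then 0 to 11.1 in A and 0 to 0.433 in B (adjusted p = 0.0516, or 0.0403 with the block, alternatives 0.0124 to 0.14, and 0.00957). Its A libraries lay below N in CPM, though A1 at 3.71 TPM lay above N2 at 2.02 TPM. A3 at 0 overlapped the B libraries.

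The NADPH oxidase makes the superoxide of phagocytes. Its membrane subunit Cybb spanned 20.4 to 44.1 CPM in N, then 0.887 to 18.6 in A and 0.816 to 2.84 in B. It fell by 1.87 ± 0.64 and then 2.49 ± 0.69 on the log2 scale (adjusted p = 0.0282 and 0.0291, the second 0.0518 with the block and 0.105 without A1, alternatives 0.00104 to 0.105, and also lost without B1, B2 or B4). The cytosolic subunits Ncf1 and Ncf4 fell at both steps as well (adjusted p = 0.0288 and 0.00725 for Ncf1, 0.00537 and 0.0243 for Ncf4). The span of Ncf1 overlaps Gtf2ird2 on the other strand.

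The Cybb call from N to A was lost without N1, N3, A2 or A4, up to an adjusted p of 0.075 (alternatives 0.00613 to 0.0946). That of Ncf1 from N to A was lost without N1, N3 or A2, up to 0.0699 (alternatives 0.0054 to 0.127), and that of Ncf4 from A to B without A1, A2 or B1, up to 0.0666 (alternatives 0.000323 to 0.1). Of 8 further oxidase genes, 7 were tested, of which 2 fell from N to A and 2 from A to B and none rose. Cyba, the partner of Cybb in the membrane, was at 84.4 ± 20.4 CPM in N, 33.1 ± 4.78 in A and 11.5 ± 3.93 in B. It fell at both steps (-1.35 ± 0.22 and -1.52 ± 0.22, adjusted p = 0.00028 and 0.00111).

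Ctss, the lysosomal protease cathepsin S, spanned 28.2 to 57.6 CPM in N, then 3.55 to 14.3 in A and 0.423 to 2.22 in B (adjusted p = 0.00164 and 0.00761). The groups did not overlap in CPM, but in TPM A4 at 20.1 lay above N2 at 15.0. Cd14, the co-receptor for bacterial lipopolysaccharide, moved least among the shared genes, with 9.39 to 11.7 CPM in N, 3.86 to 7.11 in A and 0.884 to 4.31 in B. It fell by 1.05 ± 0.37 from N to A (adjusted p = 0.035, alternatives 0.0061 to 0.291, lost without any 1 of N1, N3, N4, A2, A3 or A4) and did not pass from A to B (-0.99 ± 0.38, adjusted p = 0.102).

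The genes of leukocytes in general fell from N to A in all 7 cases, at a median log2 change of -2.27, and 6 of the 7 fell from A to B, at a median of -1.97. Their sum was 416 ± 147 CPM in N, 112 ± 47.6 in A and 31.1 ± 6.84 in B. All 7 calls in A against N held in each fit that left out 1 library.

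Ptprc, which encodes CD45, the surface phosphatase of all leukocytes, gave 26.4, 23.1, 47.8 and 21.5 CPM in N1 to N4, 7.91, 2.69, 1.11 and 9.06 CPM in A1 to A4 and 0.408, 0.525, 3.38 and 0.974 CPM in B1 to B4. B3 was higher than A2 and A3, so that B and A overlapped. Ptprc fell by 2.51 ± 0.66 from N to A (adjusted p = 0.00782) and did not pass from A to B (-1.97 ± 0.69, adjusted p = 0.0772). Without B3 the change from A to B was -3.07 (adjusted p = 0.0151), and without the libraries numbered 3 it was -3.41 (adjusted p = 0.000967; alternatives 0.000967 to 0.182).

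Cd52, a small glycosylphosphatidylinositol-anchored surface antigen, gave 13.1, 16.2, 24.6 and 8.43 CPM in N1 to N4, 4.40, 2.12, 0.355 and 1.62 CPM in A1 to A4 and 0.0741, 0.3, 0.346 and 0.487 CPM in B1 to B4. A3 alone overlapped B. It fell by 2.88 ± 0.60 and 2.83 ± 0.68 (adjusted p = 0.00172 and 0.0148). Its span overlaps Crybg2 on the other strand.

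Lcp1 and Coro1a encode actin-bundling and actin-binding proteins of leukocytes, and Laptm5 a lysosomal protein of blood cells. In CPM all of them were separated without overlap at both steps. In TPM, A1 at 23.3, 35.5 and 38.8 lay within the N range of Lcp1, Coro1a and Laptm5. Lcp1 had a log2 change of -1.59 ± 0.25 from N to A (adjusted p = 0.000216) and -1.70 ± 0.25 from A to B (adjusted p = 0.00119). The adjusted p of Coro1a was 0.000637 and 0.00189, and that of Laptm5 was 0.000907 and 0.00699. The tetraspanin gene Cd53 fell at both steps (adjusted p = 0.00191 and 0.0109), as did Rac2, a small GTPase of blood cells (adjusted p = 0.00636 and 0.0473). The second Rac2 call was lost when any 1 of 10 libraries was left out, up to 0.147 without A1 (alternatives 0.00172 to 0.147).

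Cd3e, a chain of the T cell receptor complex, gave 8.03, 2.30, 7.11 and 5.29 CPM in N1 to N4, 1.31, 2.21, 1.95 and 1.45 CPM in A1 to A4 and 1.08, 1.73, 1.23 and 0.541 CPM in B1 to B4. The A and B libraries overlapped. It fell by 1.71 ± 0.43 from N to A (adjusted p = 0.00617) and did not pass from A to B (-0.59 ± 0.44, adjusted p = 0.423).

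The mixture of leukocyte transcripts differed between libraries of a group. N3 was the highest N library for all 7 general leukocyte genes and the lowest for 8 of the 13 macrophage genes. A3 was the lowest A library for 26 of the 36 genes and had no count for 6 of them. In B, B4 was highest for 11 of the 13 macrophage genes and B3 lowest for 8. The mast cell protease gene Cpa3 was high in N3, at 373 CPM against 115 to 210 in the other N libraries, and in B3, at 40.8 CPM against 0.0741 to 0.487 in the other B libraries, but low in A3, at 0.0444 CPM. Without the libraries numbered 3, 25 of the 36 genes were lower in A than in N and 25 in B than in A. All 36 were lower in B than in N, and none was higher in any comparison. The share of all genes called in that fit is not given.

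Genes of the growth factors and regulators of macrophages did not all follow the macrophage genes. Of 11 tested, 8 fell and 2 rose from N to A, and 3 fell and 1 rose from A to B. Csf1, which encodes a ligand of the Csf1r product, stood at 34.5 ± 6.98 CPM in N, 11.5 ± 3.56 in A and 3.45 ± 1.80 in B and fell at both steps (-1.58 ± 0.35 and -1.73 ± 0.36, adjusted p = 0.00265 and 0.00745). Cx3cl1, which encodes the ligand of Cx3cr1, rose instead, from 13.1, 9.23, 13.2 and 7.57 CPM in N1 to N4 to 52.2, 39.8, 56.5 and 52.5 CPM in A1 to A4 and 124, 105, 129 and 116 CPM in B1 to B4. The groups were fully separated, with log2 changes of 2.22 ± 0.18 (adjusted p = 6.84e-07) and 1.24 ± 0.17 (adjusted p = 0.00093). The regulator gene Cebpb fell from N to A (-0.84 ± 0.17, adjusted p = 0.00151) and did not pass from A to B (adjusted p = 0.216).

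Among 14 tested genes of resident macrophages, 4 fell from N to A, 3 fell from A to B, and 13 were lower in B than in N. Lyve1, a hyaluronan receptor of tissue macrophages and lymphatic vessels, fell from N to A (-1.26 ± 0.35, adjusted p = 0.00994) and did not pass from A to B (adjusted p = 0.298). Gas6, which encodes a ligand for receptors that take up dying cells, fell at both steps (-1.18 ± 0.21 and -1.39 ± 0.22, adjusted p = 0.000666 and 0.00155).

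In the complement list, 6 of 10 genes fell and 1 rose from N to A, and 5 fell and none rose from A to B. C1ra, which encodes a protease that binds C1q, fell at both steps (-1.58 ± 0.38 and -2.0 ± 0.40, adjusted p = 0.00462 and 0.00578). C3, the central complement protein, was at 38.5 ± 10.4 CPM in N, 6.33 ± 2.69 in A and 3.31 ± 0.791 in B, falling from N to A (adjusted p = 2.06e-05) and not passing from A to B (adjusted p = 0.0595). The gene that rose was C6, a component of the membrane attack complex, with 3 counts in N, 105 in A and 122 in B.

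Of 16 tested genes of activating receptors and their kinases, 9 fell and none rose from N to A and 5 fell and none rose from A to B. Lyn, a kinase of this pathway, fell at both steps (-1.51 ± 0.19 and -1.13 ± 0.20, adjusted p = 4.29e-05 and 0.00249). Pirb, an inhibitory receptor of myeloid cells, was at 11.6 ± 3.67 CPM in N, 3.87 ± 3.55 in A and 0.0659 ± 0.108 in B, and passed only from A to B (-5.69 ± 0.92, adjusted p = 0.00185; adjusted p = 0.063 for A against N).

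Mesenchymal, endothelial and erythroid genes were lower in the same order of groups, on the CPM and the TPM scale. In CPM, the mesenchymal genes summed to 33.4% of their N level in A and to 4.50% in B, and the endothelial genes to 29.2% and 4.40%. The erythroid genes summed to 0.709% and 0.287%, and the acinar genes to 25.9% and 15.5%. In TPM the shares were higher, at 68.7% and 9.44% for mesenchymal, 64.5% and 9.86% for endothelial, 1.55% and 0.636% for erythroid and 51.7% and 31.4% for acinar genes. The mean β cell sum was above that of N in A and below it in B on both scales, at 154% and 25.8% in CPM and 322% and 53.6% in TPM. The direction of the ductal sum turned with the scale, from 81.2% and 80.5% in CPM to 151% and 137% in TPM. The mesenchymal sum ranged from 11600 to 22600 CPM in N, 2440 to 9920 in A and 389 to 1310 in B, and no mesenchymal gene was at 0 in any library. The endothelial sum ranged from 274 to 581 CPM in N, 45.2 to 224 in A and 4.82 to 41.6 in B, with 2 of its 8 genes at 0 in B4 and 1 in B3. In CPM, the sums of the macrophage genes were 46.9% and 19.0% of N, those of the general leukocyte genes 26.8% and 7.49%, those of the shared phagocyte genes 17.1% and 2.68% and those of the neutrophil genes 4.94% and 0.082%. In TPM these were 102% and 49.7%, 50% and 12.4%, 40.3% and 6.46%, and 14.3% and 0.207%, in the same order. Within the macrophage sums, C1qa alone held 94.4, 51.7 and 50.4 CPM of 451, 211 and 85.6 CPM in N, A and B. In TPM, C1qa held 92.6, 105 and 102 of 296, 303 and 147. All 8 mesenchymal genes fell at both steps, among them Pdgfra, a receptor of fibroblasts, at 136 ± 49.8, 44.7 ± 22.9 and 2.87 ± 1.76 CPM in N, A and B. Of the 8 endothelial genes, including the junction protein gene Pecam1, 7 fell from N to A and 8 from A to B. The share of each leukocyte class in the sorted α cells was not tested against that of the other cell types, and how far the presence of such cells sets the levels above was not tested.

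**Figure D5:**
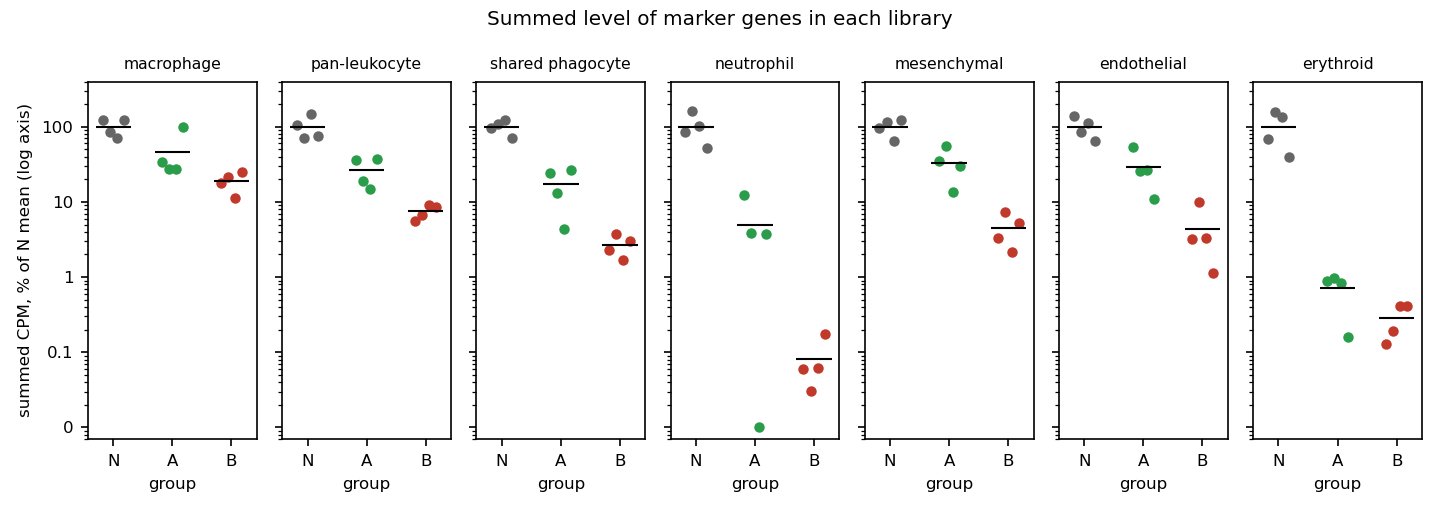
Summed CPM of each gene class in each library as a percentage of the N mean (log axis, with 0 drawn at the foot); points are libraries and lines are group means. Macrophage genes in A reach the N level in A4 alone, and neutrophil genes are at 0 in A3 and at most 0.217 CPM in every B library.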

How the data were processed

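RNA was sequenced from 12 sorted samples, 3 groups of 4. The RNeasy mini plus and SMARTER mRNA-Seq kits were used for RNA and libraries, per the labels' protocols. STAR 2.5.2b and DRAGEN are named as tools, and GRCm38 (mm10) and GRCm39 (mm39) as builds, per the submitters' processing notes, without saying which made which table. The authors deposited estimated counts and TPM for each gene and library, per the file headers, in a table on each build. The GRCm39 table was used and the mm10 table was an alternative, in which Adgre1 is listed as Emr1. A further deposited sheet, holding 36 columns of library values, was left aside.

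Rounding of the estimated counts moved no library total by more than 0.000286%. Genes were filtered with filterByExpr, then TMM factors (0.732 to 0.81 in N, 1.12 to 1.18 in A, 1.1 to 1.14 in B) were applied, and all 12 libraries were fitted by group with edgeR 4.0.16 in R 4.3.3 (glmQLFit, glmQLFTest; common biological coefficient of variation 0.305). Benjamini-Hochberg adjustment covered all 17230 genes tested, and calls were made at 0.05. Each standard error is the log2 change divided by the square root of its F statistic. The deposited TPM entered no test. Libraries of a group differed by more than sampling noise (chi-square per degree of freedom of at least 26), so each counted as its own replicate. The fit was tested on simulated data.

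The genes and lists were chosen with earlier results of these data known. Values in every library are printed for 19 listed genes and for the members with the 2 highest and 2 lowest log2 changes of A against N and of B against A; other members are given by range. From each further leukocyte list, the first gene and the 2 with the smallest p in either comparison may be named, and from lists of other cells the first gene. Cebpe is named beside these because it changed least of its list between N and A. The caption of the neutrophil figure names the list genes it leaves out. Figures show further genes where stated. Some genes of these lists are not reported here.

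The labels say that replicates came from different mothers and that dissociated pancreas was sorted into the groups, but do not state outright that a number marks the same mother in each group. Summed Y-linked genes showed 1 pattern per number in all 3 groups (112 to 156 CPM in replicate 1, 0.191 to 0.488 in replicate 3). On both grounds the numbers were read as pairs, but the main fit by group did not use this pairing. Calls and adjusted p-values are therefore unpaired unless the block is named. For A with B, deviations from the group mean had correlations of 0.0531, 0.16, 0.143 and 0.233 by number. A fit with this block was among the alternatives, beside RLE factors, no factors, unfiltered genes, a minimum of 10 counts in 8 libraries, DESeq2 1.42.0, fits of only the groups compared, leaving out each library, and the mm10 table; a fit without the libraries numbered 3 was added after the data were seen.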

Additional observations from a re-analysis of the deposited data

Results flagged for a closer look

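Within groups of 4 libraries, 8 of 105 gene and group combinations had a library that stood far from the others, by Dixon's test of the gap against the range. Chance alone marks about 1 in 20 such groups. A4 accounted for 5 of the 8, all macrophage genes: C1qb at 57.5 CPM (next highest A library 13.6), C1qc at 48.2 CPM (10.5), Mrc1 at 57.5 CPM (9.13), Ms4a7 at 10.2 CPM (1.86) and Pf4 at 23.5 CPM (5.70). In N, C1qa was low in N2, at 62.6 CPM against 103 to 108 CPM in the others. In B, S100a8 at 0.108 CPM and Mpo at 0.0541 CPM were seen in B4 only, which rests on 2 counts and 1 count.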

How the results depend on the processing

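No gene of the 36 was called higher in any comparison under any of the alternatives, and all 36 were lower in B than in N except under the filter of 10 counts in 8 libraries, which tested 30 genes and called all 30, and with library totals alone, which called 35 (all but C1qa). The number lower in A than in N was 17 to 30 and in B than in A 16 to 27 over all alternatives. Fits that left out 1 library gave 18 to 28 genes lower in A than in N, 19 to 27 lower in B than in A and 36 to 36 lower in B than in N, with 0 to 0 higher; 18 of the 23 calls in A against N and 19 of the 25 in B against A held in every such fit. The fit of only the 2 groups compared gave 16 lower in B than in A, of the 32 genes it tested. Shares of all genes called are not given for the alternatives, apart from the split with library totals below. With the replicate number as a block, 30, 27 and 36 genes were lower and none higher; the block changed no call other than those given beside their genes. Library totals without factors shifted the median of all genes by 0.57 in A against N and 0.54 in B against N, with 1386 lower and 8243 higher of all genes in A against N in place of 3664 and 4099, and 3407 and 8263 in B against N in place of 5257 and 5118. Under that scaling Adgre1 (0.00) and Ms4a7 (0.13) were no longer negative in A against N. C1qa spanned -0.14 to 0.12 in B against A when 1 library was left out, changing sign without A4 (0.12), without B3 (0.05) and without the libraries numbered 3 (0.07); the cause was not tested. Depth limits Mpo, Elane and S100a8 in B, where 3 counts in a library correspond to 0.111 to 0.162 CPM.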

Other observations

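Genes of other blood lineages mostly fell from N to A, with exceptions in each list but that of B cells. All 7 B cell genes tested fell. Of 10 T, NK and innate lymphoid genes, 7 fell and 1 rose from N to A. Gzma, which encodes a granzyme, had 243 counts in N and none in A or B, at least 69.2-fold lower in A. Of 7 dendritic cell and MHC class II genes, 5 fell, and Cd74, the invariant chain, was at 106 ± 63.6 CPM in N, 6.44 ± 7.4 in A and 2.85 ± 1.46 in B (log2 change -4.04 ± 0.76 in A against N, adjusted p = 0.000883 with edgeR). Of 7 monocyte genes, 6 fell from N to A, among them Ly6c2, a surface antigen of inflammatory monocytes (-4.00 ± 1.31, adjusted p = 0.0239). Of 10 mast cell and basophil genes, 6 fell from N to A and 1 from A to B; Mcpt8, a basophil protease, had 463 counts in N and none in A or B. Of 5 megakaryocyte and platelet genes, 1 fell from N to A and 2 from A to B.

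Eosinophil genes differed from this pattern. Of 4 tested, 1 fell and 1 rose from N to A and 3 fell from A to B. Ccr3, the eotaxin receptor, measured 0.868, 0.871, 1.57 and 0.545 CPM in N1 to N4, 17.1, 3.20, 0.798 and 4.82 CPM in A1 to A4 and 0.0371, 0.225, 0 and 0 CPM in B1 to B4, with a log2 change of 2.75 ± 0.84 in A against N (adjusted p = 0.0176) and -6.44 ± 1.09 in B against A (adjusted p = 0.00224). A1 was highest and A3 lay within the N range. Siglecf, a lectin of eosinophils, had 140 counts in N, 195 in A and none in B, at least 67.7-fold lower in B than in A. Prg2, the granule major basic protein gene, moved the other way from N to A, at 3.16 ± 2.71 and 0.288 ± 0.365 CPM (-3.43 ± 1.17, adjusted p = 0.0353).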
